A study of Mus musculus with 4 samples.

Results

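The nuclear genes that encode the respiratory chain and the ATP synthase were read in activated mouse T cells as 88 of the 50600 genes in the count tables. They were taken by gene symbol alone: names of the Nduf (complex I), Sdh (complex II), Uqcr (complex III), Cox4 to Cox8 (complex IV) and Atp5 (complex V) series, without symbols marked as pseudogenes. Complex I contributed 40 members, complex II 4, complex III 8, complex IV 19 and complex V 17. Of these, 84 are annotated as protein coding and 4 as processed pseudogenes under ordinary names (Ndufs6b, Ndufb4c, Ndufa11b and Cox6c2).

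The study sequenced RNA of primary T cells of the inbred mouse strain C57BL/6NJ in 4 libraries of 1 group, numbered by the labels as biological replicates 1 to 4. Sex was not collected and age is unknown, all 4 libraries share 1 donor entry, and separate animals are not stated, so that the spread between them may be in part technical. The labels give no culture condition, but the alignment names in the count tables carry the words Th0 and activated and a time of 24 h. A protocol for CD4+ T cell differentiation is linked, and the assay is titled total RNA-seq although the protocol it links to names poly(A)+ RNA. With 1 group, the design holds no contrast between conditions, and the comparisons below are between genes within a library and between replicates.

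Totals were 60102919, 273136467, 48608896 and 47558517 counted fragments in replicates 1 to 4. The 10 T cell markers lay between 94.7 and 1766 TPM (fragments per kilobase of exon scaled to a common total), and 28 of 33 markers of other cell types were below 1 TPM in every library. Xist stood at 163 and 150.5 TPM in replicates 1 and 2 and at 0.715 and 0.696 TPM in replicates 3 and 4, while Y-linked Ddx3y stood at 0.0434, 0.0219, 38.8 and 39.3 TPM, which sets replicates 1 and 2 apart from 3 and 4 in these genes. A single animal would not give both patterns, so the number of animals behind each SD is not known. In bulk RNA, fewer cells of a type and less RNA per cell cannot be told apart.

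As background, complex I oxidises NADH and complex II oxidises succinate, and both pass the electrons to coenzyme Q. Complex III hands them on to cytochrome c, and complex IV transfers them from there to oxygen. Complexes I, III and IV pump protons across the inner mitochondrial membrane, and complex V, the ATP synthase, lets them return and makes ATP. All complexes except complex II combine subunits encoded in the nucleus with subunits encoded in mitochondrial DNA, and T cells are known to build up mitochondria after activation.

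Sequence upstream of the members is shown for a few genes whose levels are described below. RefSeq promoter windows (GRCm38.p6, from 250 bases before to 50 bases after the annotated gene start) were found for 68 of 88 members in 73 windows. They were searched on both strands for letters known as binding sequences of NRF1 (core CGCATGCG), of ETS factors such as GABP (CCGGAAG) and of YY1 (core AAGATGGCG), for the E-box CACGTG, the TATA box letters TATAAA, and CCAAT; none of these strings lies within another. Below, matches to all of these except CCAAT are in capitals. Cox6a1 and Cox8a are shown as highly expressed complex IV genes, Ndufs6 as 1 of 7 members with the YY1 letters, and Cox8b as a muscle-type gene without a fragment in any library.
Cox6a1 (chr5:115348909-115349208, minus strand): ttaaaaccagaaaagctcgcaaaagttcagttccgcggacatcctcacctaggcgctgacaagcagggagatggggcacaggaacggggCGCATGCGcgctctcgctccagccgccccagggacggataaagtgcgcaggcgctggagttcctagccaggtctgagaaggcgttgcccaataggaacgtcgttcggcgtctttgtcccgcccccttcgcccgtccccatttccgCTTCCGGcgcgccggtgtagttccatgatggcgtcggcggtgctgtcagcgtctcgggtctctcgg
Cox8a (chr19:7217567-7217866, minus strand): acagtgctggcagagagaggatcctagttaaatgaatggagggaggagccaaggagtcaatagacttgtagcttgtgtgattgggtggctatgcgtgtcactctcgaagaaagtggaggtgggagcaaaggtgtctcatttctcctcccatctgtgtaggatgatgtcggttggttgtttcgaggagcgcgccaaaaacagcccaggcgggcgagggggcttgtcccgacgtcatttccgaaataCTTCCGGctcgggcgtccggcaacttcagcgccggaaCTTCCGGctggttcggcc
Ndufs6 (chr13:73328433-73328732, minus strand): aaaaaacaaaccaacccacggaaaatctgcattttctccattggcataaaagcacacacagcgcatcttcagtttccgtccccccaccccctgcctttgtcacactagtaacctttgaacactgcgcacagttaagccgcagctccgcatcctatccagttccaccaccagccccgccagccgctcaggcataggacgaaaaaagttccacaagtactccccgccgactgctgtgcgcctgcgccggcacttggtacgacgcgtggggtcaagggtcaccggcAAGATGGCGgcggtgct
Cox8b (chr7:140900397-140900696, minus strand): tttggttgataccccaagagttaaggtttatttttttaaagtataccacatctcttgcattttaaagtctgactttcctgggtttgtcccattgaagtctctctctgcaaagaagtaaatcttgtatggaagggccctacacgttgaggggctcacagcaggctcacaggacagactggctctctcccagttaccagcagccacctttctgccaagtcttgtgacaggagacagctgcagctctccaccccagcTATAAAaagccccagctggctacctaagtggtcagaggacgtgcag

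The Cox6a1 window holds the NRF1 letters at position 90 of 300 and the ETS letters at position 235. In the Cox8a window the ETS letters stand at positions 246 and 283. The Ndufs6 window has the YY1 letters at position 284, and the Cox8b window has TATA letters at position 255 and none of the NRF1, ETS or YY1 letters. A match is a description of the letters only, and a window without one says nothing about the factor.

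The letters were chosen, and those for NRF1 and YY1 shortened to cores, after the windows had been seen. The shares that follow are therefore a description and not a test of enrichment. Over all windows of members, 9 of 73 (12.3%) held the NRF1 letters, against 1.87% of 32851 RefSeq promoter windows. The genes were Ndufa8, Ndufa11, Uqcr11, Uqcrc1, Cox6a1, Atp5g2, Atp5j, Atp5k and Atp5l, which belong to complexes I, III, IV and V. The ETS letters were in 16 windows of members (21.9%), against 8.86% of all windows. YY1 letters were in 7 (9.59%), against 1.403%: 5 of complex I (Ndufa9, Ndufc1, Ndufs4, Ndufs6 and Ndufs7) and 2 of complex V (Atp5j2 and Atp5j). In all but Atp5j the match lay just after the annotated gene start, between positions 273 and 286. The other strings were in shares nearer to those of all windows: the E-box in 9.59% against 7.15%, TATA letters in 10.96% against 13.6%, and CCAAT in 42.5% against 37.4%. Members' windows had a median ratio of observed to expected CpG of 0.795, against 0.384 in all windows. The 8 paralogues of complex I and IV subunits named for muscle, testis, lung or hypoxia had 4 windows with a median CpG ratio of 0.382, of which 2 held TATA letters and none the NRF1, ETS or YY1 letters.

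Nearly all of the ordinary subunits were transcribed at a high level. Of 88 members, 78 had at least 1 TPM in every library, 74 at least 10 TPM and 59 at least 100 TPM. The median member stood at 184 ± 7.37 TPM (SD over 4 libraries), and the 78 members with at least 1 TPM had a median place at percentile 92.1 of the 11483 genes at that level in every library. Together the members made up 2.16%, 2.08%, 2.08% and 2.16% of all TPM in replicates 1 to 4 (2.12% ± 0.0473). Complex V took the largest share of TPM with 0.663% ± 0.00788, followed by complex I with 0.599% ± 0.0222, complex IV with 0.477% ± 0.0111, complex III with 0.258% ± 0.00752 and complex II with 0.121% ± 0.00198. The order of shares follows neither the number of members nor the median level. Median TPM was 284 ± 7.12 in complex III, 276 ± 7.73 in complex II, 215 ± 4.45 in complex V, 142 ± 8.74 in complex I and 130 ± 5.61 in complex IV. The medians of complexes III and II overlap between libraries (277 to 293 against 265 to 284 TPM). The low median of complex IV includes its tissue-type paralogues, and without them it is 253 ± 11.3 TPM. The order of the medians depends on the length used: with principal transcript lengths complex V was highest at 324 TPM, and without length complex II was highest at 164 CPM with complex III at 111 CPM.

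**Figure D1:**
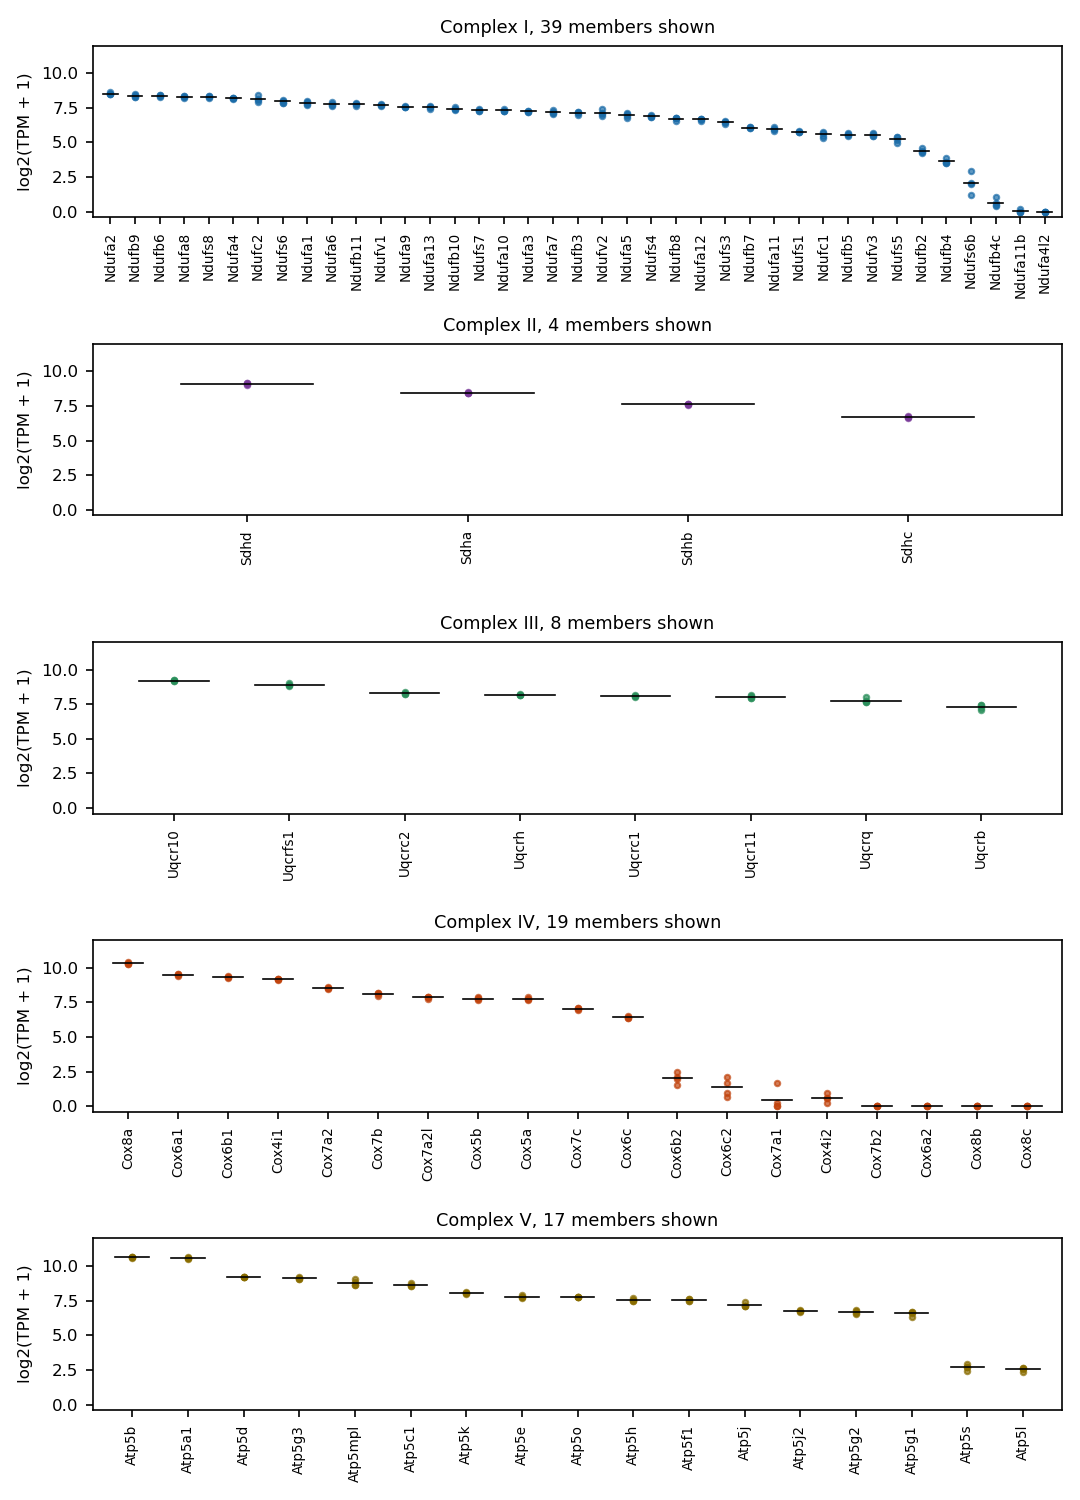
Level of 87 of the 88 members in 4 libraries, one panel per complex, as log2(TPM + 1); points are libraries, black bars their mean, and members are ordered by mean TPM within the complex. Most members lie above 100 TPM, with a tail of paralogues and pseudogenes near 0 in complexes I and IV.

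Complex I begins with the matrix arm, where NADH is oxidised and electrons pass through flavin and iron-sulphur clusters. Its 7 core subunits had a median of 164 ± 5.02 TPM and its 29 coding accessory subunits one of 152 ± 4.31 TPM. Among the core subunits, Ndufs8, which carries iron-sulphur clusters close to the quinone site, was highest with 312 ± 16.6 TPM, and Ndufs1, which carries several clusters of the matrix arm, was lowest with 54.0 ± 1.25 TPM. Ndufv1, which binds NADH and the flavin, had 209 ± 6.38 TPM.

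Accessory subunits gave both the highest and the lowest of the coding complex I genes. Ndufa2, an accessory subunit of the matrix arm, had 355, 359, 366 and 391 TPM in replicates 1 to 4. Ndufb9, of the membrane arm, had 360.0, 306, 306 and 352 TPM, and Ndufb6, of the same arm, had 335, 327, 310 and 337 TPM. Values of Ndufb9 overlap those of both other genes, while Ndufa2 was above Ndufb6 in every library. At the other end, Ndufb4 had 11.3, 10.6, 10.3 and 13.5 TPM and Ndufb2 22.7, 17.6, 19.7 and 19.3 TPM, in both cases without overlap with any of the high genes. By mean TPM, Ndufa2 was 32.2-fold above Ndufb4. Where a gene shares sequence with copies, or where annotated exons reach far beyond the usual transcript, TPM can read low, as described further on. In Ndufb2, 33.5% of 50-base stretches recur in another gene and exon length is 12.4-fold that of the principal transcript. In Ndufb4 these values are 37.0% and 1.20-fold. Ndufb4c, a processed pseudogene, had 3, 10, 6 and 3 fragments, and Ndufa11b, another, had 5 fragments in replicate 2 and none in the others. The pseudogene Ndufs6b had 1.30, 3.09, 6.71 and 3.28 TPM from 8, 85, 33 and 16 fragments.

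Complex II has only nuclear subunits. Sdhd, a membrane anchor, had 557, 565, 517 and 575 TPM, and Sdha, the flavoprotein that oxidises succinate, had 348, 345, 371 and 355 TPM. Sdhb, the iron-sulphur subunit, had 203, 186, 197 and 201 TPM. Sdhc, the partner of Sdhd in the membrane anchor, had 100, 107, 103 and 105 TPM. The ranges of the 4 genes did not overlap, and Sdhd was 5.34-fold above Sdhc by mean TPM although the proteins form 1 anchor.

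Complex III had the narrowest range of levels, 3.72-fold from its highest to its lowest member. Uqcr10, a small subunit, had 584, 565, 599 and 598 TPM, and Uqcrfs1, the Rieske iron-sulphur protein, had 524, 480.0, 445 and 470.4 TPM. The core proteins Uqcrc2 and Uqcrc1 stood at 314 ± 15.7 and 274 ± 9.71 TPM, with Uqcrc2 at 331, 324, 300 and 301 TPM by library. The lowest were Uqcrq with 256, 204, 202 and 209 TPM and Uqcrb, a small subunit near the quinone site, with 172, 152, 136 and 171 TPM. All 8 members had at least 100 TPM in every library. The carrier between complexes III and IV is cytochrome c: Cycs, its somatic form, had 74.9, 72.5, 64.8 and 71.9 TPM, below every complex III gene, and was at least 199.9-fold higher than the testis form Cyct, which had no fragment.

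Complex IV had 11 coding subunits of the ordinary set between 85.8 and 1291 TPM by mean. Cox8a, a small subunit (chr19:7215158-7217616, minus strand), had 1322, 1269, 1230 and 1343 TPM. Cox6a1 (chr5:115345642-115348981, minus strand) had 723, 662, 764 and 767 TPM, and Cox6b1, which lies between the monomers of the dimer, 606, 671, 642 and 659 TPM. Cox8a was above Cox6a1 in all 4 libraries, while Cox6a1 and Cox6b1 overlapped. Cox4i1, the largest nuclear subunit, was close to constant at 567, 571, 572 and 575 TPM. The lowest ordinary subunits were Cox7c with 130.4 ± 5.61 TPM and Cox6c with 85.8 ± 3.90 TPM, whose annotated exons are 7.09-fold as long as its principal transcript. Ndufa4, named for complex I but known as a complex IV subunit, had 291, 279, 293 and 291 TPM, and counting it with complex IV gives that complex 0.506% of all TPM.

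Several complex IV subunits exist in alternative forms, and in each such pair the form used in most tissues was much the higher. Cox6a2 and Cox8b, the heart and skeletal muscle forms, had no fragment in any library, and neither had Cox8c or Cox7b2, which are known from testis, or the hypoxia-linked Ndufa4l2. With 3 fragments per library taken as the floor, Cox6a1 was at least 2438-fold higher than Cox6a2, Cox8a at least 2086-fold higher than Cox8b and at least 2758-fold higher than Cox8c, Cox7b at least 632-fold higher than Cox7b2, and Ndufa4 at least 1491-fold higher than Ndufa4l2, taking the lowest bound of the 4 libraries in each case. Cox7b itself had 291, 268, 248 and 289 TPM.

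The other alternative forms were detected at a low level. Cox4i2, the form known from lung and linked to hypoxia, had 0.501, 0.176, 0.898 and 0.543 TPM, from 34 fragments in all, and Cox4i1 exceeded it by 8.57 ± 0.28 in log2(TPM + 1) (SD, n = 4). Cox6b2, the testis form of Cox6b1, had 3.26, 1.96, 4.60 and 2.83 TPM, and Cox6b1 exceeded it by 7.31 ± 0.42 on the same scale. Cox7a1, the heart and muscle form, had 2.21 TPM from 21 fragments in replicate 1, 0.189 TPM from 8 fragments in replicate 2 and no fragment in replicates 3 and 4. Cox7a2, its counterpart in most tissues, had 371, 379.5, 361 and 389 TPM and exceeded Cox7a1 by 8.07 ± 0.82. The 7 muscle markers summed to 3.20, 3.11, 3.33 and 2.22 TPM in replicates 1 to 4, almost all of it from Tnnt2 (2.90, 2.94, 2.80 and 1.94 TPM), with the other 6 below 1 TPM in every library. Ckm, the muscle creatine kinase, had 0.194, 0.0477, 0 and 0.0979 TPM, from 10, 11, 0 and 4 fragments. Whether RNA of muscle cells has a part in the Cox7a1 values was not tested. The 7 germ cell markers summed to between 0.198 and 0.348 TPM, and all 7 were below 1 TPM in every library.

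Cox7a2l is a relative of Cox7a2 known for joining complexes III and IV in supercomplexes. Its level was of the same order as that of Cox7a2, with 231, 216, 242 and 237 TPM. Cox7a2 exceeded it in 4 of 4 libraries, by 0.70 ± 0.09 in log2(TPM + 1), a ratio of 1.62 ± 0.107.

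The differences within libraries were tested by exact permutation of their signs, two-sided. With 4 libraries the smallest exact result is 2 of 16 sign assignments (p = 0.13). The pairs Cox4i1 and Cox4i2, Cox6b1 and Cox6b2, Cox7a2 and Cox7a1, Cox7a2 and Cox7a2l, and all pairs with a silent partner reached that smallest value, with the first gene higher in 4 of 4 libraries (adjusted p = 0.135 by Benjamini-Hochberg over 13 pairs). No pair can therefore pass a threshold of 0.05, and the size of the difference against its SD is the measurement given here.

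**Figure D2:**
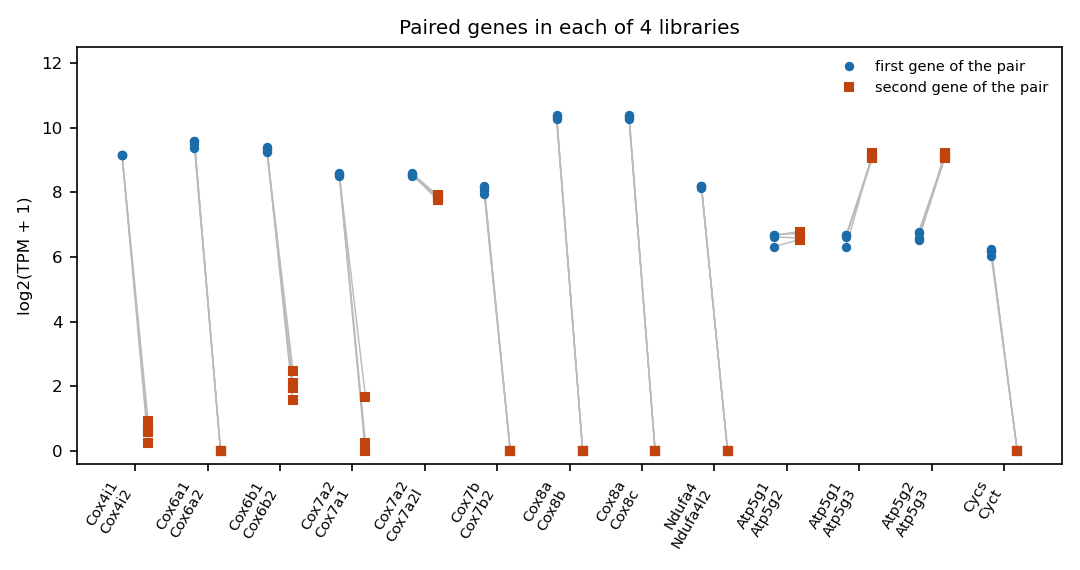
Levels of the 13 gene pairs in 4 libraries as log2(TPM + 1), with the first gene of each pair as blue circles on the left, the second as orange squares on the right and grey lines joining values of 1 library. Second genes of 6 pairs lie at 0 in every library, while Cox7a2l and the Atp5g genes are near or above 6.

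Complex V held the most abundant members. Atp5b, the catalytic beta subunit (chr10:128083273-128090391, plus strand), had 1544, 1590.4, 1593 and 1598 TPM, and Atp5a1, the alpha subunit that alternates with it in the head of the enzyme, had 1482, 1529, 1575 and 1516 TPM. The libraries of the 2 genes overlap. Atp5d, the delta subunit of the central stalk, had 588, 593, 600.4 and 579 TPM, and the gamma subunit Atp5c1, which forms the rotor shaft, had 398 ± 30.5 TPM. Atp5e, the epsilon subunit, stood at 220.4 ± 10.4 TPM. The 5 genes of the head and central stalk had a median of 590.1 ± 9.02 TPM.

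Peripheral stalk genes lay close together, from 144 ± 13.5 TPM for Atp5j to 218 ± 3.37 TPM for Atp5o, the subunit that ties the stalk to the head. Of the small membrane subunits, Atp5mpl was highest with 443 ± 67.2 TPM and Atp5k had 264 ± 11.6 TPM. Atp5j2 had 106 ± 4.14 TPM. Atp5l, subunit g, was lowest of the complex by mean, with 5.30, 5.22, 4.91 and 3.98 TPM, and Atp5s, a coupling factor that is not a structural subunit, had 4.25, 6.45, 5.62 and 5.38 TPM, so that the ranges of both genes overlap. Atp5b was 326-fold above Atp5l by mean TPM, a ratio that rests on the count and exon length of Atp5l.

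The c ring, which turns as protons pass, is built from 1 mature protein encoded by 3 genes. Atp5g3 had the highest TPM in every library, with 592, 535, 565 and 541 TPM. Atp5g1 had 79.0, 98.0, 102 and 101 TPM, and Atp5g2 had 92.1, 94.9, 105 and 109.6 TPM. Atp5g1 differed from Atp5g3 by -2.55 ± 0.23 and Atp5g2 from Atp5g3 by -2.46 ± 0.16 in log2(TPM + 1), lower in 4 of 4 libraries (exact permutation p = 0.13, adjusted p = 0.135). Atp5g1 and Atp5g2 differed by -0.08 ± 0.11, less than the spread, with Atp5g1 higher in 1 of 4 libraries (exact permutation p = 0.375). Without division by exon length the sign of that last difference turned, to 1.45 in log2(CPM + 1), where CPM is the count scaled to the library total. With the length of the principal transcript it was -1.93 ± 0.11, and Atp5g1 minus Atp5g3 was -4.09 ± 0.23. The difference of Atp5g1 and Atp5g2 was thus negative with either length and turned without length, and its size depended on the length used. All 50-base stretches of the principal transcript of Atp5g2 (100%) recur in other genes, and fragments that align to several places were not counted. The level of Atp5g2, and with it the sign and size of its differences from the other c ring genes, is therefore uncertain.

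Sequence that a member shares with other genes can bear on its level, because fragments that align to several places were not counted. The part of such sharing in the levels was not tested. Of stretches of 50 bases in the principal transcript, a median of 1.66% per member also occurred in a transcript of another gene, and 38 members shared none. Sharing was above 50% in 7 members. All stretches of Atp5g2 (100%) recurred in 2 other genes, and 84.8% of those of Atp5l recurred in 14 other genes. The share was 53.0% in Cox7c, 50.5% in Atp5h, 50.3% in Atp5o, 43.4% in Uqcrb and 41.2% in Ndufs5. It was 39.7% in Ndufs3, 38.7% in Atp5f1 and 37.0% in Ndufb4. Mean levels of the genes named so far ran from 4.85 TPM for Atp5l to 218 TPM for Atp5o, with Ndufb4 at 11.4 TPM. The other members above 50% were the processed pseudogenes Ndufb4c (100%, 0.599 TPM) and Cox6c2 (52.7%, 1.78 TPM). Exon length was a second property examined. The annotated exons of Atp5l span 6443 bases against 544 in its principal transcript, and those of Ndufb2 5628 against 455. Those of Ndufb7 span 4522 against 623 and those of Cox6c 3567 against 503. Over all members, exon length was 1.35-fold the length of the principal transcript at the median and 12.4-fold at most. Spearman's rho of TPM with exon length was -0.388 over the 74 members with at least 10 TPM in every library, a description across genes that are not independent. Exon length was also 4.88-fold that of the principal transcript in Ndufa11 and 4.63-fold in Ndufb5 and in Ndufb8. The levels of all genes named above for shared stretches or long exons are uncertain for one or both of these reasons. Ndufb4 is among the lowest of them although several genes with more sharing stood higher. Same-strand exons of another gene overlapped 4 members, the most in Atp5o, where Donson covers 12.7% of the exon length.

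**Figure D3:**
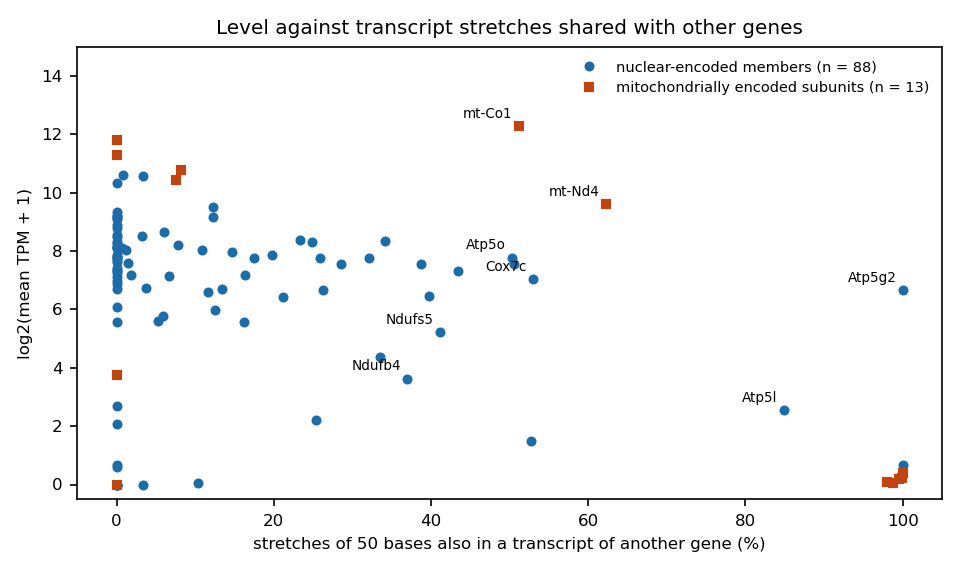
Mean level over 4 libraries, as log2(mean TPM + 1), against the share of 50-base stretches of the principal transcript found in a transcript of another gene, for the 88 members (blue circles) and the 13 mitochondrially encoded subunits (orange squares). Atp5l with 84.8% lies at 4.85 TPM and Atp5g2 with 100% at 100.5 TPM, while the squares at the lower right are mitochondrially encoded genes below 1 TPM.

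The mitochondrially encoded partners of these subunits fell into 2 sets. Complex I genes mt-Nd1, mt-Nd2, mt-Nd5 and mt-Nd4 stood at 3552 ± 116, 1781 ± 87.5, 1390 ± 50.3 and 777 ± 38.7 TPM, complex III mt-Cytb at 2492 ± 47.6 TPM and complex IV mt-Co1 at 5016 ± 205 TPM. These 6 genes were higher than the highest nuclear subunit of the same complex in every library. mt-Nd6, encoded on the other strand of the mitochondrial genome, had 11.6, 15.7, 16.1 and 7.01 TPM. mt-Nd3, mt-Nd4l, mt-Co2, mt-Co3, mt-Atp6 and mt-Atp8 were below 1 TPM in every library. In mt-Co2, 100% of the 50-base stretches recur in annotated pseudogenes, and in mt-Atp8, which had no fragment, none do but 21.1% of its exon overlaps mt-Atp6. The share of such stretches was 99.9% in mt-Co3, 99.5% in mt-Atp6, 98.8% in mt-Nd4l and 98.0% in mt-Nd3. Among the 6 high genes it was 62.2% in mt-Nd4, 51.1% in mt-Co1, 8.19% in mt-Nd2 and 7.61% in mt-Nd5. mt-Nd1, mt-Cytb and mt-Nd6 shared no such stretch. Whether fragments of the low genes, or of mt-Nd4 and mt-Co1, were lost in counting was not tested.

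Genes that serve the same complexes but lie outside the name rule had a wide range of levels. Cyc1, cytochrome c1 of complex III, had 785 ± 17.98 TPM, above every complex III member, and Usmg5, a small subunit of complex V, had 424 ± 53.6 TPM. Ndufab1, the acyl carrier protein of complex I, had 23.2 ± 1.36 TPM, and Atpif1, the inhibitor of ATP hydrolysis by complex V, had 62.0 ± 1.87 TPM. Of 52 listed assembly factors of the 5 complexes, 51 were found, 50 had at least 1 TPM and 45 at least 10 TPM in every library. Their median was 40.8 ± 0.959 TPM, against 184 ± 7.37 TPM for the subunits. The highest were Uqcc2, a complex III assembly factor, with 188 ± 16.7 TPM and Coa3, a complex IV assembly factor, with 167 ± 6.61 TPM. Pet117, another complex IV factor, had no fragment. The 13 genes of coenzyme Q synthesis had a median of 20.6 ± 1.76 TPM, from Coq2 with 82.5 ± 3.07 TPM, which attaches the side chain to the ring, to Coq8a with 1.95 ± 0.508 TPM.

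The 14 listed regulators, which act on nuclear respiratory genes or on mitochondrial DNA, were themselves transcribed with 1 exception. Nrf1 had 38.8 ± 2.12 TPM, Gabpa 67.2 ± 1.94 TPM, Yy1 142 ± 17.0 TPM and Tfam, which binds mitochondrial DNA and is needed for its transcription, 67.5 ± 5.29 TPM. Of the PGC-1 coactivators, which drive mitochondrial biogenesis, Pprc1 was highest with 168 ± 11.9 TPM and Ppargc1b had 11.1 ± 0.840 TPM. Ppargc1a, the member known from muscle, brown fat and liver, had no fragment in any library. The subunits stood between cytosolic ribosomal protein genes, with a median of 875 ± 30.0 TPM over 90 genes, and mitochondrial ribosomal protein genes, with 92.8 ± 2.70 TPM over 78 genes.

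Levels of the members were close between replicates. The coefficient of variation of TPM had a median of 4.96% over the 74 members with at least 10 TPM in every library and ran from 0.599% for Cox4i1 to 15.2% for Atp5mpl. Summed TPM of a complex varied by 1.19% in complex V, 1.64% in complex II, 2.33% in complex IV, 2.91% in complex III and 3.70% in complex I. Of the 77 members that passed the filter on low counts, 0 varied between replicates beyond the trend for genes of their level (edgeR, residual deviance of a negative binomial model, Benjamini-Hochberg adjusted p under 0.05), where 0.362% of all genes tested did. At an unadjusted p under 0.05 there were 8 of 77 members, against 5.09% of all genes (647 of 12712). The count of members was also 0 with DESeq2 size factors, with a mean of at least 50 counts, with libraries thinned to the shallowest, and without each replicate in turn. It was 4 of 83 with no filter on low counts (Atp5g1, Ndufc2, Ndufv2 and Uqcrq), where 188 of 22271 genes (0.844%) were called. It was 1 of 77 with a common dispersion (Cox6b2), where 861 of 12712 genes (6.77%) were called. The spread of the 11 members below the filter, which had at most 85 fragments in any library, was not tested there.

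The largest residual deviance among members was that of Ndufv2, an iron-sulphur core subunit of complex I (chr17:66078795-66101559, minus strand), with 166, 129, 122 and 136 TPM. Its deviance was 15.4 on 3 degrees of freedom (edgeR adjusted p = 0.227). Atp5mpl, the small proteolipid of complex V, had 531, 390.3, 391 and 462 TPM and a deviance of 14.6 (edgeR adjusted p = 0.270). Ndufc2, an accessory subunit of the membrane arm of complex I, had 337, 244, 268 and 275 TPM and a deviance of 14.0 (edgeR adjusted p = 0.306). In all 3 genes replicate 1 was highest. Uqcrq followed with 12.1 and Atp5g1 with 11.5, where replicate 1 was highest for Uqcrq and lowest for Atp5g1. At the other end, Atp5b had a deviance of 0.0542, Atp5d one of 0.0760 and Cox4i1 one of 0.105. The median deviance was 2.22 over the members and 1.94 over all genes tested.

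**Figure D4:**
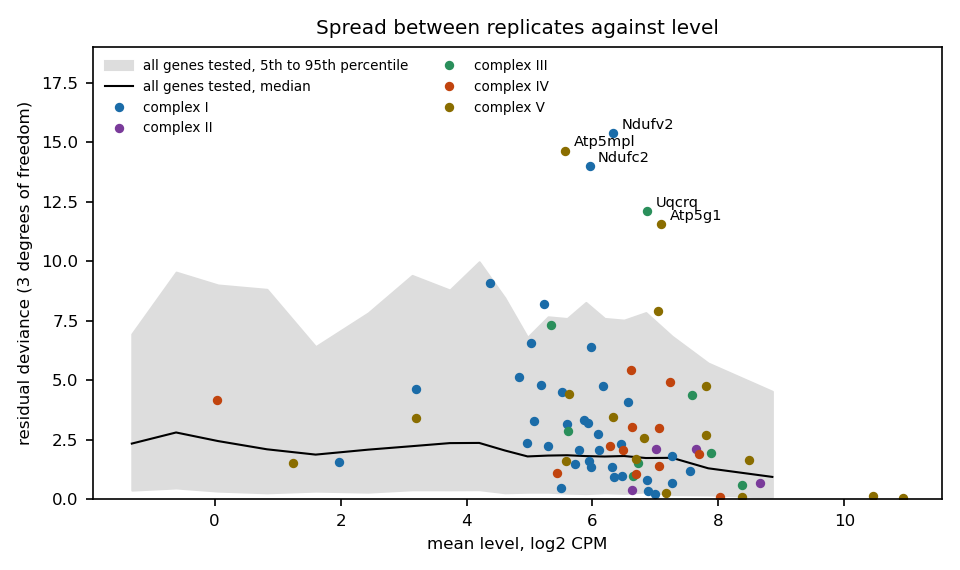
Residual deviance of each of the 77 tested members (points, coloured by complex) against its mean level in log2 CPM, with the median (line) and the range from the 5th to the 95th percentile (grey) of all 12712 genes tested, in bins of level. Ndufv2, Atp5mpl, Ndufc2, Uqcrq and Atp5g1 stand furthest above the grey range, with deviances from 11.5 to 15.4, and a few other members lie at its upper edge.

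Small as it was, the spread was shared by many members. The deviation of a gene's log2 CPM from its mean over the libraries had a median over the 77 members of 0.05, -0.05, -0.04 and 0.04 in replicates 1 to 4. The count of members above their own mean was 53, 19, 22 and 56 of 77, so replicates 1 and 4 were set against 2 and 3, a different division from that of Xist. Over all genes tested the medians were between -0.0018 and 0.0026. Complex I had medians of 0.07, -0.05, -0.05 and 0.04 over 36 members, and complex V had 0.006, -0.04, -0.02 and 0.03 over 17.

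Other gene lists deviated as well, in part in the same libraries. The medians were 0.04, -0.05, -0.06 and 0.08 over 82 cytosolic ribosomal protein genes and 0.07, -0.01, -0.05 and -0.002 over 77 mitochondrial ribosomal protein genes, which were not high in replicate 4. In 599 other coding genes with a principal transcript under 1000 bases they were 0.04, -0.03, -0.04 and 0.03, while they lay between -0.0004 and 0.0012 over all 11102 coding genes. The median length of the principal transcript was 809 bases in the members, against 2898 bases in all coding genes. Spearman's rho between deviation and GC content over the members was -0.303, -0.0468, 0.275 and 0.12 in replicates 1 to 4, against -0.402, 0.105, 0.217 and 0.231 over all coding genes tested. These are descriptions across genes that share libraries, and the part of transcript length and GC content in the shared deviation of the members was not tested.

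**Figure D5:**
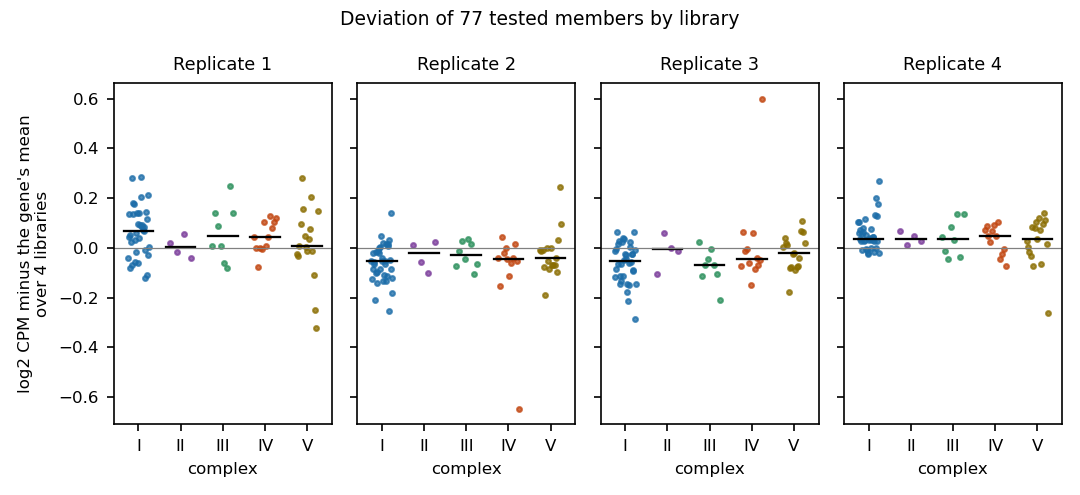
Deviation of log2 CPM from the gene's own mean over 4 libraries for the 77 tested members, one panel per replicate and one column per complex; points are genes and black bars their median. Points lie mostly above 0 in replicates 1 and 4 (53 and 56 of 77) and below 0 in replicates 2 and 3 (19 and 22 of 77 above), and the points beyond 0.5 in either direction are Cox6b2.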

How the data were processed

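The values used are counts deposited by the authors, with the exon length of each gene. They were made with featureCounts 1.4.6-p4 per the file headers, from read pairs of which both mates aligned to exons of GENCODE vM13 genes. Strand setting 2 was used, without fragments that align to several places or overlap several genes. The build is mm10 per the labels. The aligner's settings are not given in the sources used here.

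TPM was computed from the deposited counts and exon lengths, so a gene whose annotated exons exceed its usual transcript can read low. Symbols came from GENCODE vM21, which matched 50376 of 50600 identifiers, and 6 pseudogenes with -ps symbols were left out by the rule. For variation between replicates, edgeR 4.0.16 in R 4.3.3 was used: filterByExpr (minimum count 10, 12712 genes), TMM, an intercept-only negative binomial model with trended dispersion, residual deviance against chi-square on 3 degrees of freedom, and Benjamini-Hochberg adjustment over all genes tested. Pairs were tested by an exact sign-flip permutation test on log2(TPM + 1). Floors were 3 counts per library and, like counting intervals, cover counting error only, because PCR duplicates are not separate molecules. Counts of every pair of libraries differed by more than sampling noise (7.50 to 24.9 chi-square units per degree of freedom), so all 4 were kept. DESeq2 1.42.0 size factors were an alternative. Shared stretches were counted over GENCODE vM21 transcripts, with the principal transcript taken by its APPRIS tag, and promoters are from RefSeq. Other steps ran in Python 3.11.15 (scipy 1.17.1, pandas 2.3.3, numpy 2.4.6, figures with matplotlib 3.10.9). The motif letters were chosen, and those for NRF1 and YY1 shortened to cores, after the windows had been seen.

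The members and lists were chosen with earlier results of these data known. Genes named with values in every library are those of the 13 pairs, the 3 highest and 2 lowest of each complex, and the 3 of largest deviance. The pairs, lists and alternatives are described in the closing section where they change a value. The level of 1 complex I member is not reported here by itself.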

Additional observations from a re-analysis of the deposited data

Results flagged for a closer look

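In each of 88 sets of 4 library values, the highest or lowest library was set against the other 3 by Dixon's ratio of gap to range at its 95% critical value. The sets were the members with a fragment in any library and the summed TPM of each of the 5 complexes, so they are not the 88 members. Chance flags about 1 in 20 sets, and 11 were flagged, of which replicate 1 was the distant library in 7, replicate 2 in 3, replicate 3 in 0 and replicate 4 in 1. The sets share their libraries and are not independent.

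Replicate 1 was distant from the others in 7 members. It was high in Uqcrq (256 TPM, the others from 202 to 209), in Ndufa10, an accessory subunit of complex I (167.6 TPM, the others from 154 to 156), in Atp5j of the peripheral stalk (164 TPM, the others from 136 to 139), in Cox6c (91.6 TPM, the others from 83.3 to 84.6) and in Cox7a1 (2.21 TPM, the others from 0 to 0.189). It was low in Atp5b (1544 TPM, the others from 1590.4 to 1598) and in Ndufv1 (199 TPM, the others from 211 to 213).

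Replicate 2 was high in Ndufs1 (55.9 TPM, the others from 53.3 to 53.5), low in Ndufa4 (279 TPM, the others from 291 to 293), and the only library with fragments in the pseudogene Ndufa11b (0.149 TPM from 5 fragments, with the deepest total of the 4). Replicate 4 was high in Atp5j2, subunit f of complex V (112 TPM, the others from 104 to 105). Cox7a1 and Ndufa11b were below the filter on low counts and not tested for variation between replicates, and none of the other 9 passed that test after adjustment in the setting reported.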

How the results depend on the processing

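No paired analysis was possible because the samples form 1 group. Of 264 values recomputed, 227 were kept, 36 moved and 1 reversed. Pairs were kept if their direction stayed, and levels and shares if they moved by less than the spread between replicates. Counts of genes or members were kept if they stayed within a fixed ratio of the main value. By that ratio, 34 varying genes without replicate 4 and 51 with a mean of at least 50 counts were kept, against 46 in the main setting. The 227 include values that could not move. Among them are the shares with TPM over genes outside mitochondrial DNA, and pairs limited to genes with at least 1 TPM. The reversed one is Atp5g1 minus Atp5g2, at 1.45 in log2(CPM + 1), where exon length is not divided out.

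In CPM without length, the median was 73.6 over all members and 58.1, 164, 111, 77.7 and 123 in complexes I to V, 29 members reached 100 in every library, and the members' share was 1.12%. Without the 8 tissue-type paralogues, the median was 200.2 TPM over all members and 253 TPM in complex IV. Counting Ndufa4 with complex IV gave that complex a median of 171 TPM. Lengths of the principal transcript and the omission of 4 pseudogenes were chosen after seeing the data: the first gave 204 TPM over all members, 159, 288, 302, 183 and 324 TPM in complexes I to V and a share of 2.41%, so complex V then had the highest median, and the second gave 192, 152 (complex I) and 171 TPM (complex IV). TPM over genes outside mitochondrial DNA moved none of the medians past the spread and changed no count of members at a level. The shares could not change in that setting, because they were still taken over all genes. A pseudocount of 0.1 in place of 1 changed no direction in the 13 pairs but widened the differences from genes near 0, for example to 12.8 for Cox6a1 minus Cox6a2, 13.7 for Cox8a minus Cox8b and 9.97 for Cox4i1 minus Cox4i2. Principal transcript length also changed no direction and gave -1.93 for Atp5g1 minus Atp5g2 and -4.09 for Atp5g1 minus Atp5g3.

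With no filter on low counts, 188 of 22271 genes (0.844%) and 4 of 83 members varied between replicates. With a common dispersion, 861 of 12712 genes (6.77%) and 1 of 77 members did. Without 1 replicate in turn, 25 to 42 genes varied (25 without replicate 2, the deepest library) against 46 with all, and 0 members each time. The causes were not tested.

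Leaving out each replicate moved the median of all members between 181 and 186 TPM and their share between 2.10% and 2.13%.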
